A study of Rattus norvegicus with 15 samples.

Results

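The genes of the proteasome were followed in the inferior colliculus (IC) of Wistar Audiogenic Rats (WAR) and Wistar rats, as all array genes whose symbol starts with Psma to Psmg and a digit, without the immunoproteasome genes *Psmb8*, *Psmb9* and *Psmb10*. The rule found 44 genes on 51 probe sets among the 14506 genes measured under a single symbol. For the 7 genes with several probe sets, the one with the highest mean over the 15 arrays was used. The rule did not use the strain or the sound, but it was set with earlier results of these data known. The 44 genes comprised 6 of the alpha ring and 8 of the beta ring of the 20S core, 6 ATPases and 11 other subunits of the 19S cap, 4 activator genes and 6 assembly chaperones. The remaining 3, *Psma3l*, *Psmc3ip* and *Psme3ip1*, only share the name pattern: the first is a copy-like relative of an alpha gene, and the others encode interacting proteins that are not subunits. *Psma3*, *Psma8*, *Psmf1* and *Psmg3* were not measured under a symbol of their own and are not analysed here.

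The proteasome is the protease that degrades most ubiquitin-tagged proteins of the cell. Its 20S core is a barrel of alpha and beta rings in which the beta subunits encoded by *Psmb5*, *Psmb6* and *Psmb7* carry the catalytic sites. The 19S cap recognises, unfolds and feeds in substrates. Cells can raise the transcription of the whole set together through the factors NFE2L1 and NFE2L2, and in neurons the proteasome also acts at synapses.

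RNA of the IC, the midbrain auditory nucleus in which audiogenic seizures start, was hybridized to Affymetrix Rat Gene 1.0 ST arrays, and the values are log2 values normalized by RMA. All rats were males of 12 weeks. There were 4 arrays of WAR that had received no sound (WAR N), 4 of Wistar without sound (Wistar N), 5 of WAR exposed to auditory stimulation (WAR S) and 2 of Wistar exposed to it (Wistar S), with the tissue of the stimulated groups taken 60 min after the seizures of the WAR. The WAR, a line bred for audiogenic seizures, came from the School of Medicine of Ribeirão Preto and the Wistar rats from Charles River, so strain and provider cannot be told apart. The questions were whether proteasome genes differed between WAR and Wistar with and without sound, and whether *Psmb6* departed from the others.

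The arrays have to be described before the results. Any 2 stimulated arrays shared the exact value of 2675 to 3286 probe sets and any 2 naïve arrays that of 2 to 13, while a stimulated and a naïve array shared 0, so the stimulated and the naïve arrays were taken as normalized apart, and strains were compared only within each of these. Among stimulated arrays, 12 of the 44 proteasome genes had at least 1 repeated value, which narrows their spread. The Wistar N arrays did not form 1 group. Over all genes, the SD of the log2 difference between 2 arrays was 0.24 to 0.29 among Wistar N 2, 3 and 4, but 0.52 to 0.58 between each of these and Wistar N 1. Wistar N 1 differed from the WAR N arrays by only 0.30 to 0.38, and the other Wistar N arrays from WAR N by 0.45 to 0.54. Over the proteasome genes the same distances were 0.22 to 0.26, 0.77 to 0.85, 0.39 to 0.43 and 0.66 to 0.82. Naïve results are therefore given also without Wistar N 1 and with Wistar N 1 as the only Wistar N array, and whether that array carries the right label was not tested. The p-values measure the spread between these arrays, and their number limits the precision.

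**Figure D1:**
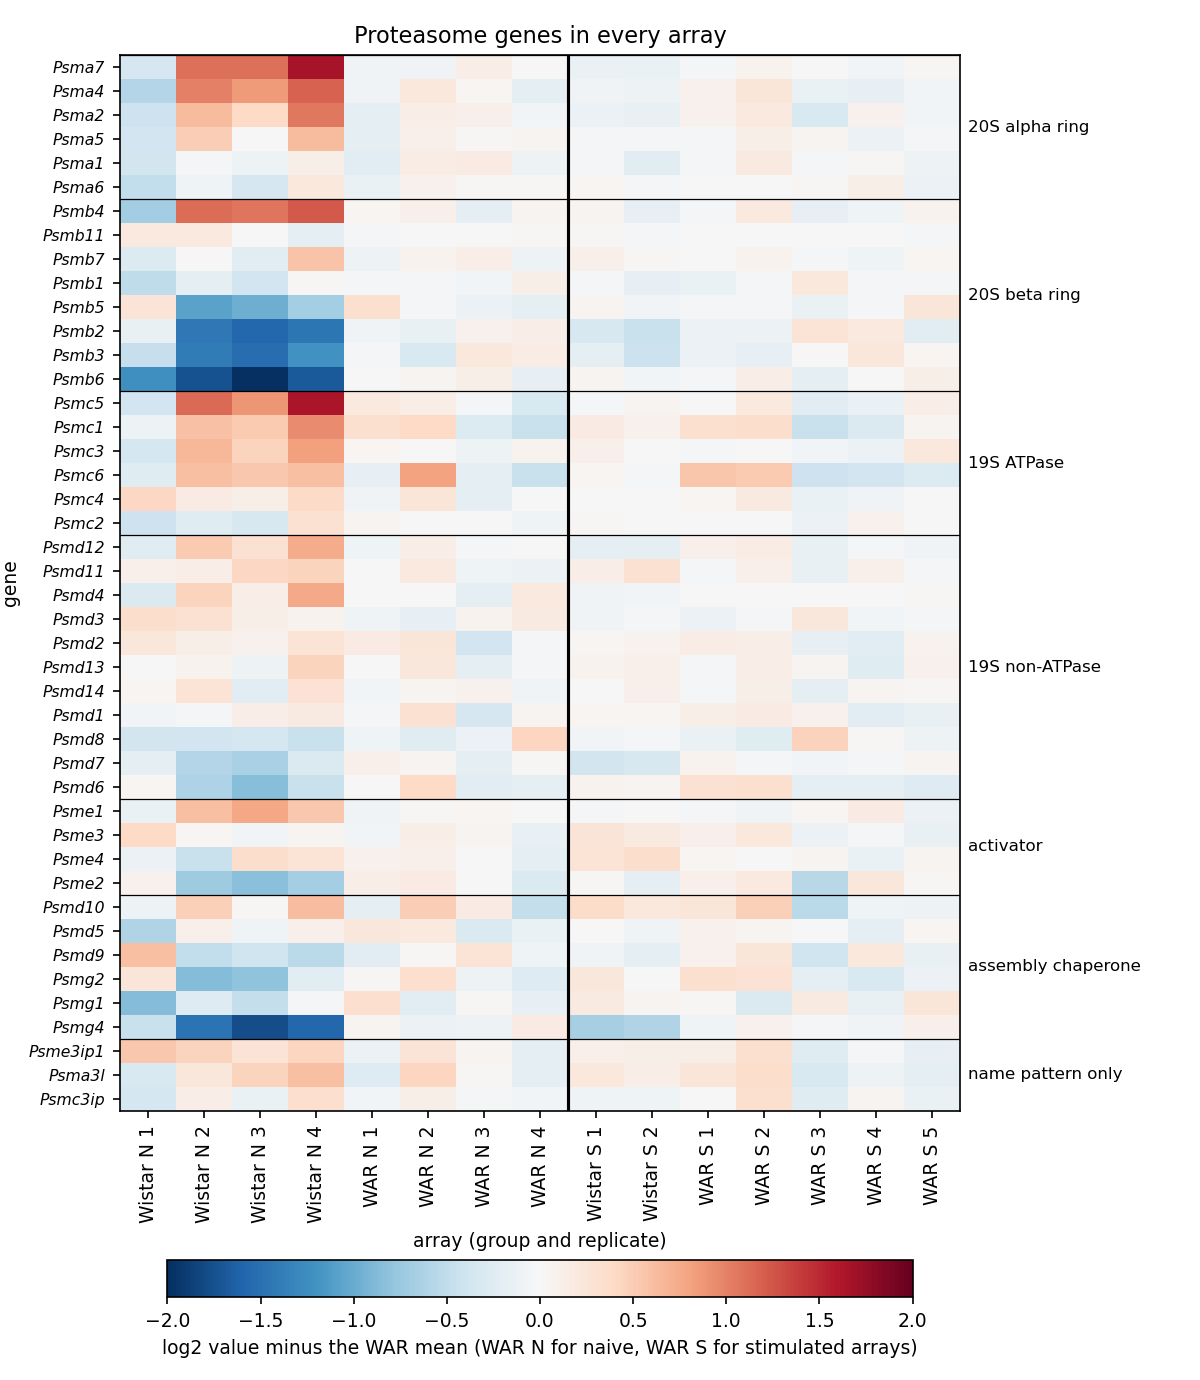
Log2 value of each of the 44 proteasome genes (rows, by role) in each of the 15 arrays (columns) minus the mean of the WAR arrays of the same part, WAR N for naïve and WAR S for stimulated arrays. Wistar N 2, 3 and 4 show strong blocks of both colours, Wistar N 1 shows few of them, and the stimulated columns are pale.

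The heat map of the 44 genes in all arrays shows the main pattern. In the naïve arrays the strain difference went up for some proteasome genes and down for others, while in the stimulated arrays none was called. Called in the naïve arrays were 18.2% of the 44 and 20.9% of all genes, and in the stimulated arrays 0 and 0.414%. Both shares were near those of all genes. The upstream sequences of *Psmb6*, *Psmb3* and *Psmb2* are shown because these were the 3 core genes called higher in WAR N. Each is the 300 bases around the start of the gene in the RefSeq annotation of GRCr8, on the plus strand. Capitals mark matches to TGACNNNGC, the core of the antioxidant response element bound by NFE2L1 and NFE2L2, and to CCAAT, the box bound by NF-Y, on either strand, where N is any base. *Psmb6* lies at chr10:55737638-55737937, *Psmb3* at chr10:83193537-83193836 and *Psmb2* at chr5:144254808-144255107.
Psmb6: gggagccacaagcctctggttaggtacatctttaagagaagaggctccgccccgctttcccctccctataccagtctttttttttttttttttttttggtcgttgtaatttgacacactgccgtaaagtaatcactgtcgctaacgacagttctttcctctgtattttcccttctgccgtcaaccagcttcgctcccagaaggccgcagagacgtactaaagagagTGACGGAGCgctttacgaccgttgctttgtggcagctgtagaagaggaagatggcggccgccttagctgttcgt
Psmb3: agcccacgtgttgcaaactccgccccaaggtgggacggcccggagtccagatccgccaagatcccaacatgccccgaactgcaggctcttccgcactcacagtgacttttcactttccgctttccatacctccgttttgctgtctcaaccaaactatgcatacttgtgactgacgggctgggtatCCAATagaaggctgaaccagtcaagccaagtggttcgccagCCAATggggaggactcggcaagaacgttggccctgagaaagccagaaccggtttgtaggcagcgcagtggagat
Psmb2: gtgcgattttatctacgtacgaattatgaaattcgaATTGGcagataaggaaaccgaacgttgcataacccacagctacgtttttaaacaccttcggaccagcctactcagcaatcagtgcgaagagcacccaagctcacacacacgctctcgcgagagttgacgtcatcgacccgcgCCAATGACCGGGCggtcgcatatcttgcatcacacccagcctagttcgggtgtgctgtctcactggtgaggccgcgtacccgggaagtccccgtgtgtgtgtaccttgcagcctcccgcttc
*Psmb6* held 1 match to TGACNNNGC, which begins 24 bases before the start, and none to CCAAT. *Psmb3* held 2 matches to CCAAT and none to TGACNNNGC. *Psmb2* held 1 TGACNNNGC match that overlaps a CCAAT match and a second CCAAT match on the opposite strand. The 3 promoters therefore shared neither motif throughout. Of the 38 proteasome genes with a promoter in the table, 7 (18.4%) held TGACNNNGC and 18 (47.4%) CCAAT, against 12.1% and 37.5% of all 33469 promoters. These letter matches are a description and show no binding.

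*Psmb6*, which encodes the β1 subunit with the caspase-like catalytic site, was lower in naïve Wistar than in naïve WAR rats and near equal in the strains after sound. In the naïve arrays its log2 value was 9.39, 8.87, 8.59 and 8.93 in Wistar N 1 to 4 and 10.61, 10.66, 10.72 and 10.45 in WAR N 1 to 4. Every Wistar N array lay below every WAR N array, by more than 1 log2 unit, and Wistar N 1 was the nearest. In the stimulated arrays it was 10.89 and 10.78 in Wistar S and 10.81, 10.96, 10.64, 10.82 and 10.94 in WAR S, where both Wistar values lay inside the range of WAR S.

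The mean of *Psmb6* was 10.61 ± 0.12 (SD, n = 4) in WAR N and 8.95 ± 0.33 (SD, n = 4) in Wistar N, a log2 fold change of 1.66 (SE 0.13) with a limma adjusted p of 1.4e-05. This placed it at rank 5 of the 14506 genes by p. The exact permutation test over the 8 naïve arrays (two-sided, 70 splits) gave p = 0.0286, the smallest it can give. In the stimulated arrays the means were 10.84 ± 0.13 (SD, n = 5) and 10.83 ± 0.08 (SD, n = 2), and the log2 fold change was 0.0029 (95% interval −0.33 to 0.34, limma adjusted p = 1.0). The exact permutation test of the 7 stimulated arrays (two-sided, 21 splits, smallest possible p 0.0476) gave p = 0.952. That estimate changes sign with the array left out. A difference within the interval would not have been detected by the limma fit of all arrays. Calls are adjusted over all genes, so a somewhat larger difference could also be missed. The standard error of the stimulated difference of *Psmb6* was 0.157 in the fit of all arrays and 0.092 with the stimulated arrays alone.

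The strain effect of *Psmb6* differed between stimulated and naïve arrays by −1.66 on the log2 scale (SE 0.21, limma adjusted p = 0.0081), rank 2 of all genes by p. It was the 1 proteasome gene called in this comparison, in which 0.103% of all genes were called. The adjusted p rose to 0.317 within label set 1, the arrays whose descriptions carry the first form of running number, and to 0.0932 and 0.106 without Wistar S 1 and Wistar S 2. The naïve difference alone held on each side of the split of the Wistar N arrays: it was 1.81 without Wistar N 1 and 1.22 (limma adjusted p = 0.00094) with Wistar N 1 alone. By label set it was 1.47 in set 1 (limma adjusted p = 0.0309) and 1.85 in set 2 (limma adjusted p = 0.00034).

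A second probe set named *Psmb6* gave the same picture with smaller size. Its log2 values were 8.85, 8.79, 8.96 and 8.27 in Wistar N and 9.84, 9.88, 9.70 and 9.90 in WAR N. In the stimulated arrays they were 10.33 and 10.36 in Wistar S and 10.31, 10.46, 10.29, 10.29 and 10.32 in WAR S. Here Wistar N 1 lay within the range of the other Wistar N arrays. Among all 29214 probe sets the log2 fold change was 1.11 (SE 0.12, limma adjusted p = 0.00026) in the naïve and −0.0096 (SE 0.14, limma adjusted p = 1.0) in the stimulated arrays, and the difference of the strain effects was −1.12 (limma adjusted p = 0.0462). Whether both probe sets report the same transcript was not tested.

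**Figure D2:**
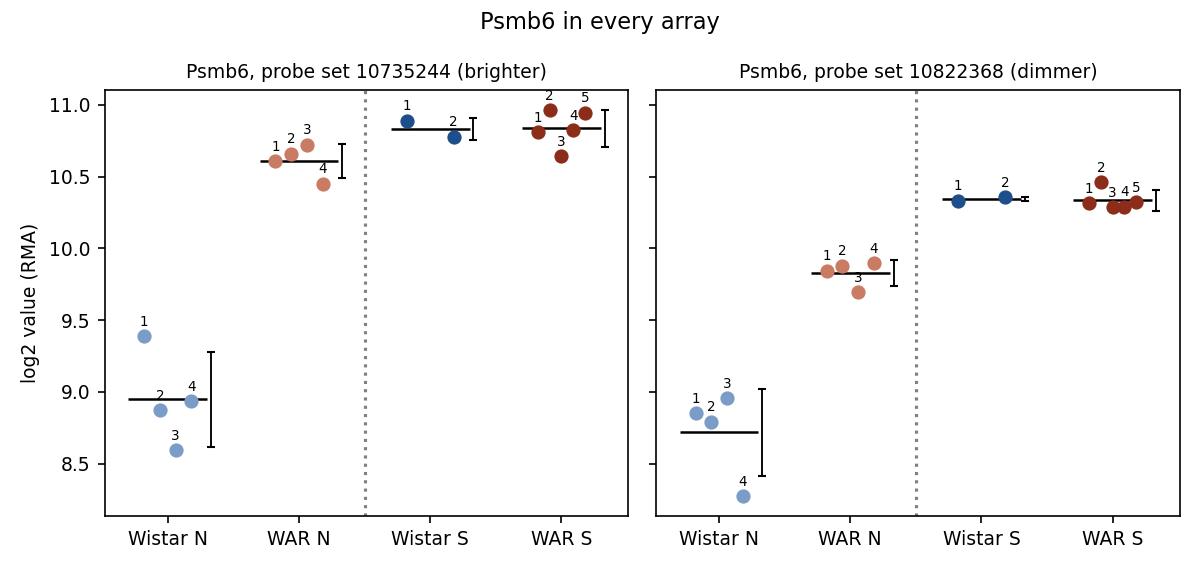
RMA log2 value of *Psmb6* in every array (points, numbered by replicate) for the brighter probe set, which was used, and the dimmer one, with the group mean (line) and SD (bar). The Wistar N arrays lie below all WAR N arrays in both panels, and the stimulated strains overlap. Levels on the 2 sides of the dotted line were normalized apart.

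To ask whether *Psmb6* departed from the family, it was set against the other 43 genes in the same array. Relative to the WAR N mean of each gene, *Psmb6* was the lowest of the 44 on each of the 4 Wistar N arrays, at −1.22, −1.74, −2.02 and −1.68. The next lowest gene was *Psmg1* at −0.87 on Wistar N 1 and *Psmg4* at −1.48, −1.77 and −1.56 on Wistar N 2 to 4. On the Wistar S arrays, against the WAR S mean, *Psmb6* was at 0.05 and −0.06, rank 29 and 16 from the lowest. The genes differ in probes, so only the change of these values between arrays can be read. The question about *Psmb6* was set with earlier results of these data known, so its ranks are a description.

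The median of the other 43 genes stayed near that of the WAR arrays. Relative to the WAR mean it was −0.24, 0.12, 0.0013 and 0.29 on Wistar N 1 to 4 and 0.02 and −0.02 on the Wistar S arrays. The value of *Psmb6* minus the median level of the others on the same array was −0.18, −0.97, −1.14 and −1.17 in Wistar N and 0.68 to 0.92 in WAR N, without overlap. In the stimulated arrays it was 0.79 and 0.70 in Wistar S and 0.66 to 1.09 in WAR S, with overlap. The difference of the group means was 1.64 in the naïve and 0.18 in the stimulated arrays. The second of these was −0.02 against the mean of the other genes and −0.05 against the other 20S genes, and with Wistar N 1 alone the first was 0.96.

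**Figure D3:**
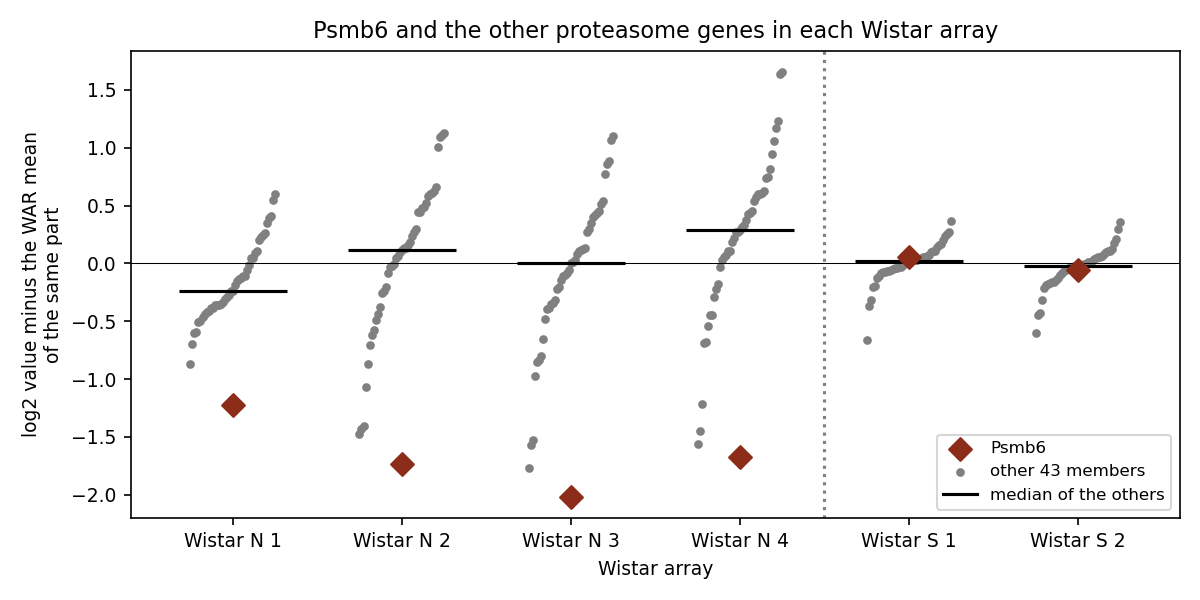
Each point is 1 proteasome gene on 1 Wistar array, as its log2 value minus the mean of the WAR arrays of the same part, with *Psmb6* as a diamond and the median of the other 43 genes as a bar. *Psmb6* is the lowest point on Wistar N 1 to 4 (−1.22 to −2.02) and lies amid the others on Wistar S 1 and 2.

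The plot of single Wistar arrays also shows how wide the family spread. On Wistar N 2, 3 and 4, 19, 16 and 22 of the 44 genes lay at least 0.5 from the WAR N mean (43.2%, 36.4% and 50.0%, against 22.5%, 21.6% and 24.0% of all genes), some higher and some lower. On Wistar N 1 it was 8 genes (18.2% against 10.1%), and on each Wistar S array only *Psmg4* (2.27% against 2.71% and 3.28%). The background of all genes was not matched to the 44 for signal level.

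Across the naïve comparison, 8 of the 44 genes (18.2%) passed the limma adjusted p of 0.05, where 20.9% of all genes did, so the share was near the background. Of these 5 were higher in WAR N (11.6% of all genes were) and 3 lower (9.38% of all genes were). The median log2 difference of the 44 was −0.08, beside 0.02 over all genes, and their SD was 0.55 beside 0.35. The median standard error of the difference was 0.15 for the 44 and 0.11 over all genes. With the thresholds of the study's methods (2-fold or more and an unadjusted p up to 0.05), 4 of the 44 passed, where 1.76% of all genes did. These were *Psmb6*, *Psmg4*, *Psmb3* and *Psmb2*, all higher in WAR N.

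The alpha ring forms the outer gate of the core. Of its 6 genes, *Psma7* (the α4 subunit) was called lower in WAR N and none higher, with a median log2 difference of −0.30. *Psma7* was at 8.56 in Wistar N 1, at 9.99 to 10.55 in Wistar N 2 to 4 and at 8.82, 8.82, 9.04 and 8.91 in WAR N. Wistar N 1 lay below the WAR N arrays and the other Wistar N arrays above them, so the groups overlapped. Its log2 fold change of −0.88 (SE 0.28, limma adjusted p = 0.0411) became −1.28 without Wistar N 1 and 0.34 (limma adjusted p = 0.0364) with Wistar N 1 alone, a call of the opposite sign. *Psma4* (the α3 subunit) had the same split, at 8.90 in Wistar N 1, 10.34 to 10.66 in Wistar N 2 to 4 and 9.31 to 9.70 in WAR N, and was not called with all arrays (log2 fold change −0.61, limma adjusted p = 0.140).

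In the beta ring 3 of 8 genes were called, all higher in WAR N, and the differences ran from −0.68 to 1.66 with a median of 0.44. *Psmb3* (the β3 subunit, without catalytic activity) was at 10.46, 9.52, 9.39 and 9.71 in Wistar N and at 10.88, 10.62, 11.13 and 11.07 in WAR N. All Wistar N arrays were lower, and Wistar N 1 lay nearest to WAR N. Its log2 fold change was 1.15 (SE 0.19, limma adjusted p = 0.0017), 1.38 without Wistar N 1 and 0.46 with it alone (limma adjusted p = 0.140). *Psmb2* (the β4 subunit) was at 11.38, 10.10, 9.96 and 10.08 in Wistar N and at 11.46, 11.38, 11.62 and 11.66 in WAR N. Wistar N 1 nearly equalled the lowest WAR N array, and the other Wistar N arrays lay more than 1 unit below. Its log2 fold change was 1.15 (SE 0.24, limma adjusted p = 0.0052) and 0.16 with Wistar N 1 alone (limma adjusted p = 0.627), so the call rested on Wistar N 2 to 4.

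Of the 3 catalytic subunits, *Psmb6* was called with all arrays and *Psmb5* only in some settings. *Psmb5* (β5, the chymotrypsin-like site) was at 11.42, 10.08, 10.18 and 10.47 in Wistar N and at 11.47, 11.14, 11.04 and 10.97 in WAR N, a log2 fold change of 0.62 (SE 0.22, limma adjusted p = 0.0646). Wistar N 1 lay among the WAR N arrays, and with it alone the sign turned (−0.26). *Psmb5* was called without Wistar N 1 (0.91), in label set 2 (0.87, limma adjusted p = 0.0022) and with the label set as a block (limma adjusted p = 0.0297). *Psmb7* (β2, the trypsin-like site) differed by −0.02 (95% interval −0.32 to 0.28). A difference between the 3 genes was not tested. *Psmb4* (β7, which helps close the ring) was at 9.29 in Wistar N 1, at 11.10, 11.05 and 11.22 in Wistar N 2 to 4 and at 9.80 to 10.09 in WAR N. It lay above WAR N on 3 Wistar N arrays and below on Wistar N 1, and its log2 fold change of −0.68 (limma adjusted p = 0.139) became −1.14 without Wistar N 1 and 0.69 with it alone, both called. *Psmb11*, the thymus-specific subunit, was at 5.22 to 5.97 over the 15 arrays.

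Of the 6 ATPases that unfold substrates at the base of the cap, 0 were called, with 5 lower in WAR N and a median of −0.39. *Psmc5* was at 8.32, 9.84, 9.60 and 10.35 in Wistar N and at 8.90, 8.84, 8.69 and 8.41 in WAR N. It had the split of *Psma7*, with Wistar N 1 below every WAR N array, and a log2 fold change of −0.81 (SE 0.30, limma adjusted p = 0.0690). *Psmc1* and *Psmc6* differed between the label sets within a strain: set 1 was higher than set 2 by 0.72 and 0.64 in WAR N and by 0.61 and 0.66 in WAR S. Their strain differences, −0.49 and −0.38, were thus no larger than the gap between label sets, and their SE were 0.24 and 0.30. In 7 genes, *Psmb2*, *Psmc1*, *Psmc5*, *Psmc6*, *Psmd2*, *Psmd5* and *Psmg2*, the label sets did not overlap in WAR N nor in WAR S. With so few arrays in each set this can also arise by chance. The share of all genes that did so was not counted, so the number is no result about proteasome genes. For *Psmb6* the label sets overlapped in both groups, with gaps of 0.05 and 0.17.

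Of the 11 other cap subunits, 1 was called and the median was −0.10. *Psmd7*, a scaffold partner of the deubiquitinase of the lid, was at 10.20, 9.81, 9.73 and 10.10 in Wistar N and at 10.49, 10.45, 10.21 and 10.41 in WAR N. Each WAR N array lay above each Wistar N array, although the closest pair was nearly equal. Its log2 fold change was 0.43 (SE 0.10, limma adjusted p = 0.0079). *Psmd8* also had no overlap, at 9.12 to 9.23 in Wistar N and 9.34 to 10.01 in WAR N, but was not called with all arrays (log2 fold change 0.38, limma adjusted p = 0.0820). With the label set as a block it was (limma adjusted p = 0.0408). *Psmd6* and *Psmd12*, both of the lid, differed by 0.47 and −0.33 and were not called, but *Psmd6* was with the label set as a block (limma adjusted p = 0.0336).

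Among the activators, *Psme1* (the α chain of the PA28 ring) was called lower in WAR N. It was at 8.72, 9.46, 9.63 and 9.40 in Wistar N and at 8.79, 8.88, 8.90 and 8.86 in WAR N, with Wistar N 1 below the WAR N arrays and the others above. Its log2 fold change was −0.45 (SE 0.14, limma adjusted p = 0.0419), and 0.13 with Wistar N 1 alone. The second, dimmer probe set of *Psme1* gave −0.07 (95% interval −0.25 to 0.12). *Psme2*, its β partner in the same ring, differed by 0.53 in the other direction and was not called with all arrays (limma adjusted p = 0.0745). It was called with the label set as a block (limma adjusted p = 0.0409), in label set 2 and without Wistar N 1. Its second probe set gave 0.55. For the other genes with a second probe set, the kept and the dimmer one gave 0.17 and 0.06 (*Psma6*), −0.27 and −0.30 (*Psmc4*), 0.38 and 0.28 (*Psmd8*) and −0.11 and 0.05 (*Psme3*).

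Of the 6 assembly chaperones, *Psmg4*, which takes part in building the alpha ring, was called higher in WAR N. It was at 7.63, 6.59, 6.30 and 6.51 in Wistar N and at 8.13, 7.95, 7.96 and 8.24 in WAR N. No arrays overlapped, with Wistar N 1 closest. The log2 fold change was 1.31 (SE 0.21, limma adjusted p = 0.0014), 1.60 without Wistar N 1 and 0.44 with it alone (limma adjusted p = 0.0365). *Psmg1* and *Psmg2*, which form another chaperone pair for the same ring, each differed by 0.41 and were not called. Of the genes with the name pattern only, *Psme3ip1* was called lower in WAR N. It was at 9.56, 9.47, 9.29 and 9.45 in Wistar N and 8.91, 9.28, 9.07 and 8.82 in WAR N, a log2 fold change of −0.42 (SE 0.12, limma adjusted p = 0.0246). Its groups did not overlap, although the closest pair was nearly equal (9.29 in Wistar N and 9.28 in WAR N). Wistar N 1 lay with the other Wistar N arrays, and with it alone the log2 fold change was −0.55.

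**Figure D4:**
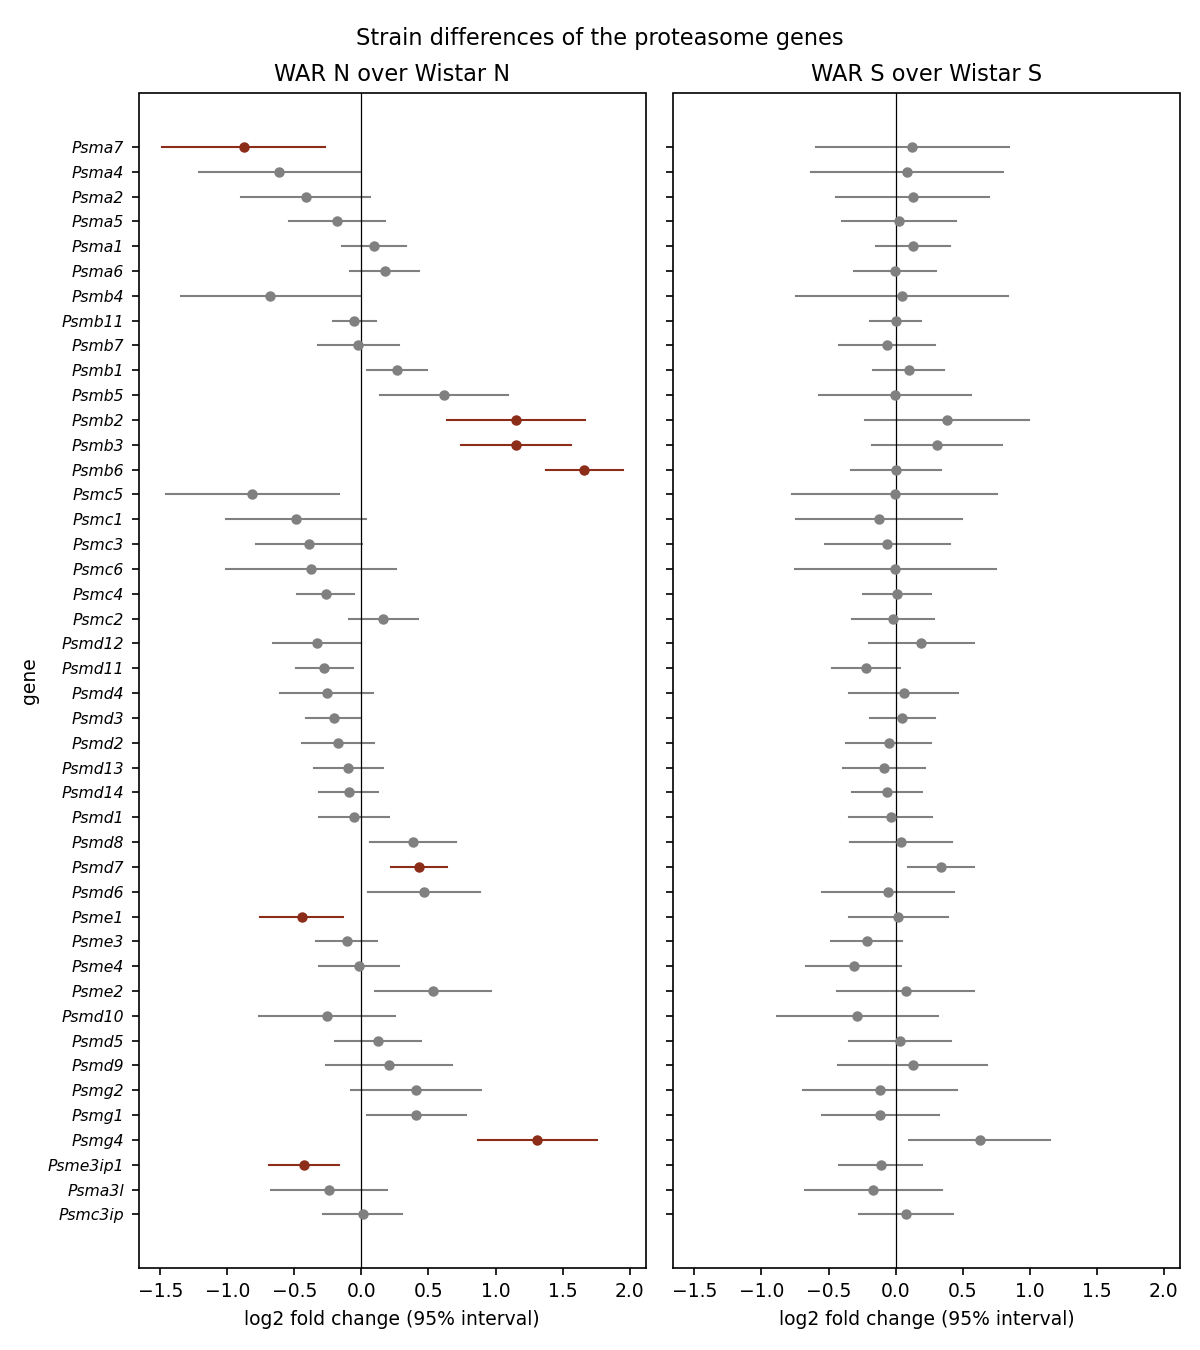
Log2 fold change of WAR over Wistar for the 44 proteasome genes with its 95% interval, in the naïve (left) and the stimulated arrays (right), in the order of the heat map. Genes with a limma adjusted p of at most 0.05 are dark red: 8 on the left, none on the right. Of all genes, 20.9% were called in the naïve and 0.414% in the stimulated arrays.

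In the stimulated comparison 0 of the 44 genes passed the limma adjusted p of 0.05, where 0.414% of all genes did. The plot of fold changes shows them gathered around 0, with 38 of 44 within 0.25, a median of 0.0015 (0.01 over all genes) and an SD of 0.17 (0.18 over all genes). In the fit of all arrays, the median standard error was 0.18 for these genes. Differences of this size, and some larger ones, would not have been detected by that fit. It also takes the naïve arrays into the spread of a gene. With the stimulated arrays alone, the standard error fell from 0.336 to 0.040 for *Psma7* and from 0.369 to 0.107 for *Psmb4*. For *Psme3ip1* it did not fall (0.144 and 0.147). The limit and the counts given here therefore belong to the fit of all arrays. At an unadjusted p of at most 0.05, 2 genes were higher in WAR S and 0 lower, where 4.02% and 2.83% of all genes did. The first was *Psmg4*, at 7.64 and 7.70 in Wistar S and at 8.22, 8.39, 8.27, 8.22 and 8.40 in WAR S, a log2 fold change of 0.63 (SE 0.25, limma adjusted p = 0.534). The second was *Psmd7*, at 10.10 and 10.15 in Wistar S and at 10.53, 10.42, 10.41, 10.44 and 10.51 in WAR S, with 0.34 (SE 0.12, limma adjusted p = 0.385).

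*Psmg4* and *Psmd7* were thus higher in all WAR than in all Wistar arrays within each part, as were *Psmb2* and *Psmb3*. The latter differed by 0.38 and 0.31 in the stimulated arrays. The 4 genes were called in the naïve part only. The share of all genes without overlap in both parts was not counted, so their number is no result about proteasome genes. With a fit of the stimulated arrays alone, *Psmg4* and *Psmd7* passed the threshold (limma adjusted p = 0.0136 and 0.0286). That fit leaves the naïve arrays out of the spread, and the standard errors were 0.066 and 0.047 in it. The SD of the Wistar N arrays was 0.60 for *Psmg4* and 0.22 for *Psmd7*, that of WAR S 0.09 and 0.06. The SD of the 2 Wistar S arrays was 0.04 for each gene. The difference of their strain effects between the parts was −0.68 for *Psmg4* (95% interval −1.37 to 0.0052, limma adjusted p = 0.337) and −0.09 for *Psmd7* (95% interval −0.41 to 0.24, limma adjusted p = 0.824). In all, 9 of the 44 genes had no overlap between WAR S and Wistar S (20.5%), as had 20.7% of all genes. Between WAR N and Wistar N, 7 had none (15.9%), as had 13.4% of all genes. The lowest fold change was that of *Psme4*, the PA200 activator, at −0.31 (SE 0.16, limma adjusted p = 0.852), with 10.20 and 10.28 in Wistar S and 9.96, 9.93, 9.98, 9.80 and 9.98 in WAR S. *Psmd11*, a lid subunit, followed among genes without overlap at −0.22 (SE 0.12).

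The choice of Wistar N arrays changed which proteasome genes were called. Without Wistar N 1, 10 genes were higher and 13 lower in WAR N, where 22.6% and 18.5% of all genes were. With Wistar N 1 alone, whose lone value is assumed to vary like the other groups, 10 were higher and 0 lower, where 4.4% and 7.16% of all genes were. All 8 genes called with all arrays were called the same way without Wistar N 1, but only *Psmb6* and *Psmg4* were with it alone. *Psma7*, *Psmb4*, *Psma4* and *Psma5* were called in both settings with opposite sign, lower without Wistar N 1 and higher with it alone. Of the 44 genes, 25 had opposite signs in the 2 settings.

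Without Wistar N 1, the genes called lower in WAR N included 4 of the alpha ring (*Psma7* −1.28, *Psma4* −1.01, *Psma2* −0.70 and *Psma5* −0.37) and 3 of the cap ATPases (*Psmc5* −1.22, *Psmc1* −0.68 and *Psmc3* −0.64). Those called higher included 4 of the beta ring (*Psmb6* 1.81, *Psmb2* 1.48, *Psmb3* 1.38 and *Psmb5* 0.91), in which *Psmb4* was called lower. In this setting the calls of the alpha ring were thus lower and those of the beta ring mostly higher in WAR N. The direction of the alpha ring held against Wistar N 2 to 4 only. Against Wistar N 1 alone, *Psma7*, *Psma4*, *Psma2* and *Psma5* were at 0.34, 0.59, 0.42 and 0.39. *Psmb6*, *Psmb2*, *Psmb3* and *Psmb5* were at 1.22, 0.16, 0.46 and −0.26. A direction of a whole ring was not tested. With Wistar N 1 alone, the alpha ring gene *Psma6* (0.50), the beta ring gene *Psmb1* (0.50), the ATPase gene *Psmc2* (0.41) and the chaperone gene *Psmg1* (0.87) were called higher, and none of these was called with all arrays.

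**Figure D5:**
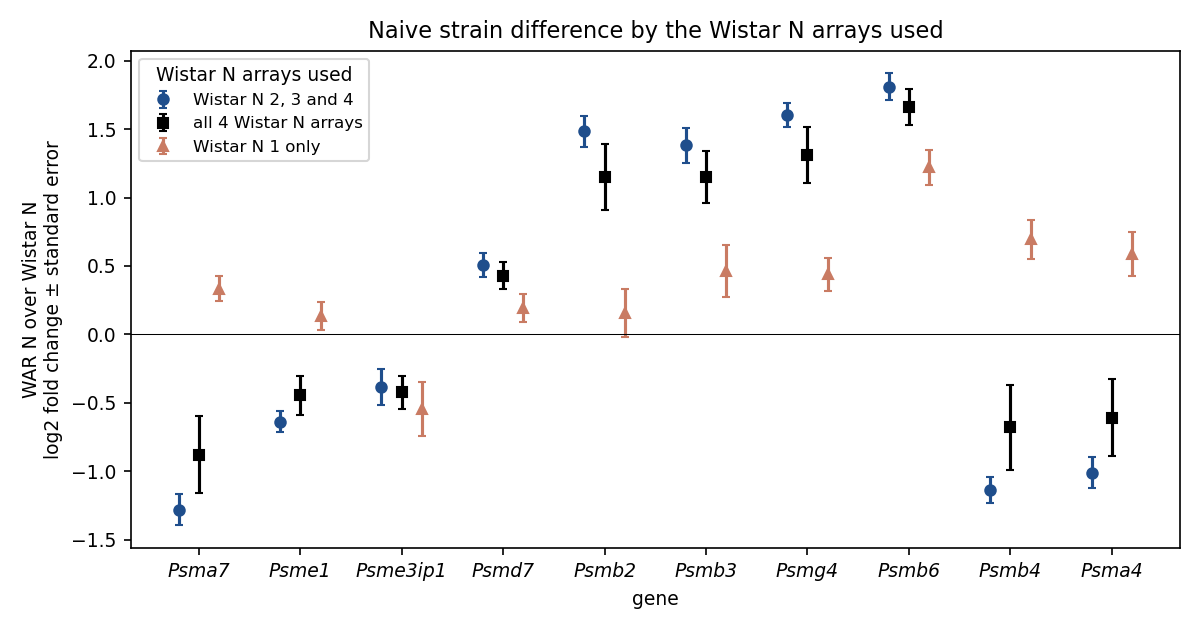
Log2 fold change of WAR N over Wistar N with its standard error for the 8 called genes and for *Psmb4* and *Psma4*, with all Wistar N arrays (squares), without Wistar N 1 (circles) and with Wistar N 1 alone (triangles). *Psmb6* stays above 1.2 in all 3, while *Psma7*, *Psme1*, *Psmb4* and *Psma4* lie on opposite sides of 0.

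The genes that work with the proteasome were followed as a list of 29 partners. In the naïve arrays 3 of them were called higher and 5 lower in WAR N, where 11.6% and 9.38% of all genes were. *Uba1*, the main ubiquitin-activating enzyme, was at 10.79, 10.78, 11.26 and 11.09 in Wistar N and 10.33, 10.34, 9.98 and 10.52 in WAR N, a log2 fold change of −0.69 (SE 0.12, limma adjusted p = 0.0025). *Adrm1*, the ubiquitin receptor of the cap, was at 9.72, 9.91, 9.99 and 9.45 in Wistar N and 9.04 to 9.19 in WAR N, and fell by 0.65 on the log2 scale (limma adjusted p = 0.0022). In both genes Wistar N 1 lay with the other Wistar N arrays. *Adrm1* was called also with Wistar N 1 alone (−0.60, limma adjusted p = 0.0166), and *Uba1* was not (−0.49, limma adjusted p = 0.0755).

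*Vcp*, the segregase that extracts ubiquitylated proteins, differed by −0.67 (limma adjusted p = 0.0026). *Zfand5*, an activator of degradation, differed by −1.0025 (limma adjusted p = 0.0110), but by only −0.08 with Wistar N 1 alone. *Akirin2*, needed for import of proteasomes into the nucleus, differed by −0.43 (limma adjusted p = 0.0326). Those higher in WAR N were the shuttle factors *Rad23b* (0.43) and *Zfand2a* (0.38) and the transcription factor gene *Nfe2l2* (0.38), with limma adjusted p of 0.0207, 0.0302 and 0.0382. None of *Vcp*, *Zfand5*, *Akirin2*, *Rad23b*, *Zfand2a* and *Nfe2l2* was called with Wistar N 1 alone.

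In the stimulated arrays 0 of the 29 partners were called. *Nfe2l1*, whose factor drives the transcription of proteasome genes, came nearest, at 10.62 and 10.70 in Wistar S and 10.14, 10.24, 10.35, 10.05 and 10.24 in WAR S. Both Wistar S arrays lay above all WAR S arrays, and the log2 fold change was −0.46 (SE 0.09) with a limma adjusted p of 0.0504. Of the immunoproteasome genes, whose subunits replace the catalytic ones, *Psmb10* was higher in WAR N by 0.39 (limma adjusted p = 0.0083), a call lost with Wistar N 1 alone (0.24, limma adjusted p = 0.243), while *Psmb8* and *Psmb9* differed by 0.03 and 0.34 and were not called. None of the 3 was called in the stimulated arrays.

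Some markers of cell types differed between the strains as well. Defining markers of neurons (10 of 10) and oligodendrocytes (5 of 6) were measured, and *Snap25* and *Mbp* were among the brightest genes, at percentile 99.9 and 99.8 of the mean level. Of markers of tissue outside the IC, the 6 of the cerebellum lay at percentiles 12.1 (*Neurod1*) to 70.2 (*Calb1*) and the 5 of the choroid plexus at 18.0 (*Ttr*) to 39.2 (*Kcne2*). In the naïve arrays 4 of 8 endothelial and 2 of 7 microglial markers were called higher in WAR N and 4 of 8 astrocyte markers lower. Of all genes, 11.6% were called higher and 9.38% lower there. In the stimulated arrays 2 endothelial and 1 microglial marker were called higher in WAR S, where 0.414% of all genes were called in either direction. The counts of these short lists were not tested against those shares. On the unlogged scale, the summed level of the endothelial markers was 2738 to 3669 over the WAR N arrays and 1510 to 2643 over the Wistar N arrays. Wistar N 1 had the highest Wistar N sum. *Flt1* was at 9.25 on it and at 7.28 to 7.44 on Wistar N 2 to 4, while *Cldn5* was at 7.52 and at 7.18 to 7.55. Marker calls are given with all Wistar N arrays only. After sound the endothelial sum ranged from 2736 to 3863 for WAR S and from 1655 to 1846 for Wistar S. Bright genes weigh most in such a sum. The endothelial markers called there were *Itm2a* and *Abcb1a*, with log2 fold changes of 1.71 and 1.18. The others, from 0.13 (*Slco1a4*) to 1.06 (*Flt1*), were not called. The 10 neuronal markers had sums of 24815 to 27476 for WAR N and 23536 to 30158 for Wistar N, with 1 called higher and 3 lower. Of the 3 red blood cell markers measured (of 7 listed), *Hbb* was called lower in WAR in both parts, and *Alas2* and *Slc4a1* in neither. Of the oligodendrocyte markers 1 was called higher and 1 lower in WAR N, of the choroid plexus markers 1 higher in WAR N, and of the cerebellar markers 0. The part of these shifts in the proteasome results was not tested, and in bulk tissue fewer cells of a type and less RNA per cell cannot be told apart.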

How the data were processed

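The deposited values are log2 values from RMA, a method of background correction, quantile normalization and probe summary that the authors ran, and no version of it is given in the sources used. Signal over background could not be recomputed. The labels title each array a biological replicate of a rat, and the design text counts as many animals as arrays. The paper's methods count other numbers of stimulated rats than the labels, which were followed. Of 29214 probe sets, 15310 carried 1 gene symbol in the platform's annotation, 323 several and 13581 none, and 0 sample columns were unused. The brightest probe set was kept for each of 14506 genes.

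Strains were compared with limma 3.58.1 in R 4.3.3 (a linear model with 1 mean for each group and moderated variances, fitted to all 15 arrays, with Benjamini-Hochberg adjustment over all genes, threshold 0.05), and *Psmb6* also with an exact permutation test (scipy 1.17.1). A call means an adjusted p of at most 0.05, and intervals are 95%. SAM, which the methods name, was not run. The fit was tested on simulated data: of 14506 genes, 200 were given a difference of 1 log2 unit between WAR S and Wistar S. Of these 166 were called, and 9 unchanged genes were. The simulated arrays had the same SD for a gene in every group and no repeated values. The real groups can differ, as with *Psma7* (SD 0.85 in Wistar N and 0.05 in WAR S). The simulation therefore does not give the share of missed or false calls on the real arrays.

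The proteasome genes, partner lists, markers and tests were chosen with earlier results of these data known. Any proteasome gene may be named, with full statistics for *Psmb6*, for the called genes and for the 3 largest and 3 smallest differences of each strain comparison, up to 4 examples of each role, and partners past the threshold or among the 4 smallest p. Label sets are 2 forms of running number in the sample descriptions, which no source calls batches: set 1 holds Wistar N 1 and 4, both Wistar S, WAR N 1 and 2 and WAR S 1, 2 and 5, and set 2 the other arrays. Alternatives were the label set as a block or alone, a replicate block, only the groups compared, trend and robust eBayes, array weights, cyclic loess, the dimmest 25% of genes left out, all probe sets, the mean of the probe sets of a gene, each array left out, other thresholds and other summaries of the family. Using Wistar N 1 alone and the dimmer *Psmb6* probe set were added after seeing the data. Promoter sequences are those of RefSeq for GRCr8.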

Additional observations from a re-analysis of the deposited data

Results flagged for a closer look

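The strain effect of *Psmb6* was flagged because it differed between stimulated and naïve arrays by the interaction test, by −1.66 on the log2 scale (limma adjusted p = 0.0081). The strains differed by 1.66 in the naïve and by 0.0029 in the stimulated arrays.

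In 39 checks of 13 named genes in 3 groups, each for a single array far from the rest of its group, 3 checks found one, on 2 arrays. Chance marks about 1 in 20 such groups. Wistar N 1 lay far above the other Wistar N arrays for *Psmb2*, at 11.38 against 9.96 to 10.10. It lay far below them for *Psmb4*, at 9.29 against 11.05 to 11.22. WAR S 4 lay below the other WAR S arrays for *Psme4*, at 9.80 against 9.93 to 9.98, a small gap on the log2 scale. The causes were not tested.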

How the results depend on the processing

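Naïve counts of called proteasome genes depended on the arrays and the model: 8 with all arrays became 4 with only the compared groups, 13 with the label set as a block (adding *Psmb5*, *Psmc4*, *Psmd6*, *Psmd8* and *Psme2*), 1 in label set 1, 20 in label set 2, 17 with array weights and 4 at the 2-fold threshold, and 5 to 23 with an array left out, the highest without Wistar N 1 and 5 without Wistar N 2, WAR N 1 or WAR N 4. The stimulated count of 0 became 2 with only the compared groups and 3 with array weights. The count for the difference of the strain effects, 1, became 0 in label set 1, 0 with the replicate block, 13 with array weights, 2 with Wistar N 1 alone, 2 at the 2-fold threshold, and 0 to 13 with an array left out (0 without either Wistar S array, 13 without Wistar N 1).

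The difference for *Psmb6* was −1.40 (limma adjusted p = 0.317) in label set 1 and −1.54 to −1.81 with an array left out, losing its call without Wistar S 1 or Wistar S 2. Its naïve call held under every alternative run. Its stimulated difference turned to −0.0034 with the mean of its probe sets and −0.0096 with the dimmer one, and was −0.053 to 0.059 with an array left out. Against the family, its stimulated offset of 0.18 became −0.018 with the mean and −0.047 with the other 20S genes. With Wistar N 1 alone the naïve offset was 0.96 and the naïve median of the family 0.24.

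The replicate numbers do not pair the arrays (correlation of same-numbered deviations 0.03 and −0.05 in stimulated and −0.31 to 0.06 in naïve arrays). With the replicate block, the difference for *Psmb6* was −1.59 (limma adjusted p = 0.114), the naïve count stayed 8, *Psma7* lost its naïve call (limma adjusted p = 0.0547) and *Psmb5* gained one (limma adjusted p = 0.0494). Stimulated differences turned to −0.063 for *Psma7*, −0.067 for *Psmb4*, −0.054 for *Psme1* and 0.039 for *Psme3ip1*.

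Other reversals concerned stimulated differences near 0. *Psmb4* was −0.0034 with the label set as a block and −0.057 to 0.16 with an array left out. *Psmc5* was 0.028 with that block, 0.11 in label set 1, 0.025 with array weights and −0.058 to 0.049 with an array left out. *Psme1* was −0.072, −0.050 and −0.0029 under the same settings, −0.026 with the mean of its probe sets and −0.021 to 0.050 with an array left out. In naïve arrays, *Psme4* was 0.019 in label set 1, 0.0056 after cyclic loess and −0.17 to 0.098 with an array left out. With Wistar N 1 alone, *Psma7* was 0.34, *Psmb4* 0.69, *Psmc5* 0.39, *Psmd10* 0.11, *Psme1* 0.13 and *Psme4* 0.12. Only label set 2 could not be fitted for stimulated arrays, since it holds no Wistar S array. The causes were not tested.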
